A study of Homo sapiens with 16 samples.

Results

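SGK and 5 further genes of the glucocorticoid response (TSC22D3, FKBP5, DUSP1, NR3C1 and ZBTB16) were followed over 45 h of HER2 kinase inhibition in SUM225 cells. They were chosen by name, with earlier results of these data known. All 14 probes that carry 1 of these 6 symbols were taken, of 24526 probes with 18631 symbols on the array. Of the 14 probes, 12 passed the filter on detection and were tested, and 2 did not (1 of 5 for TSC22D3 and 1 of 3 for NR3C1). The table writes SGK for the gene now named SGK1.

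SUM225 is a breast cancer cell line with amplified and over expressed HER2, and CP724,714 is a small molecule inhibitor of the HER2 kinase, used at 1 µM. A separate culture was taken at each of 16 time points, 3 h apart, between 0 h and 45 h. Each gave RNA for 1 Illumina bead array, with no replicate. All cultures held the natural glucocorticoid hydrocortisone at 1 µg/ml by the labels, which also list insulin at 5 µg/ml and 5% serum, whereas the study's methods describe a serum-free medium with hydrocortisone and without insulin for this line. No culture without hydrocortisone, no culture without inhibitor and no second line was analysed here, so the response of these genes to the hormone was not measured, and time in culture and handling at 0 h cannot be told apart from the inhibitor. The handling may include fresh medium with hydrocortisone, since the methods describe a medium change as treatment began for other lines of the study and do not say whether it was made here.

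Glucocorticoids such as hydrocortisone enter the cell and bind the glucocorticoid receptor, the product of NR3C1. The receptor waits in the cytoplasm in a complex of HSP90 and co-chaperones, moves to the nucleus once it has bound hormone, binds DNA and switches genes on or off. FKBP5 is a co-chaperone that lowers the affinity of the receptor for hormone and is itself induced, which closes a feedback loop. TSC22D3 (also called GILZ), ZBTB16 (also called PLZF), DUSP1 and SGK are known targets that carry the response further. Several of them also respond to other signals, among them growth factor, stress and FOXO pathways. In mammary epithelium glucocorticoids are known to support differentiation and survival.

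The regions before the start sites are shown for TSC22D3 and DUSP1, the genes whose promoters held a FOXO site or a full cyclic AMP response element together with a TATA box within 30 bases of the start. Each stretch is the 250 bases before the start on the minus strand of GRCh38.p14, from RefSeq, and capitals mark the motifs. The TSC22D3 stretch lies at chrX:107717063-107717312, before the third of 4 listed starts of that gene, and the DUSP1 stretch at chr5:172771196-172771445.
TSC22D3: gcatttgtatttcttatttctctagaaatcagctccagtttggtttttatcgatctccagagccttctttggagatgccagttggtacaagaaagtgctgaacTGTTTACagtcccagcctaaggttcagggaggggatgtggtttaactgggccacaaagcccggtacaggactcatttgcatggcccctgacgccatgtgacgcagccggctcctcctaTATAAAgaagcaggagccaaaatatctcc
DUSP1: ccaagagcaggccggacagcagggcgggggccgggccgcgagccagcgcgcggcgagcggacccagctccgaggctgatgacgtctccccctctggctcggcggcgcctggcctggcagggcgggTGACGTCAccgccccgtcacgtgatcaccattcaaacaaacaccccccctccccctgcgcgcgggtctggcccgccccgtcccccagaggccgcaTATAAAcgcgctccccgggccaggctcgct
In the TSC22D3 stretch the capitals mark a FOXO site (GTAAACA, here read on the other strand) 147 to 141 bases before the start and a TATA box (TATAAA) 29 to 24 bases before it. In the DUSP1 stretch they mark a cyclic AMP response element (TGACGTCA) 125 to 118 bases before the start and a TATA box 30 to 25 bases before it. Both strands were searched over 300 bases, 250 before and 50 after the start, of 35116 promoters. GTAAACA was held by 3.42% of them, TGACGTCA by 1.85% and TATAAA by 11.5%. The core of the glucocorticoid response element (GNACA and TGTNC with 3 bases between them) was held by 0.39% of promoters and by none of the 17 promoters listed for SGK (3), TSC22D3 (4), FKBP5 (2), DUSP1 (1) and NR3C1 (7). The shorter hexamer TGTTCT, held by 14.8% of promoters, was found at 1 start of SGK and 1 of FKBP5. The promoter table held no entry for ZBTB16. These are matches of letters in short windows, and the array did not measure binding.

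On the arrays, 10 of the 12 probes tested rose with time, none fell, and 2 did neither. A rise was called from the first-order term of a cubic course in hours fitted by limma, scaled to 45 h, at an adjusted p under 0.05. Of all 16110 probes tested, 26% rose and 21.7% fell by this measure (47.7% either way), with a median change of 0.05 log2 units. In the F-test of the whole cubic course 9 of the 12 probes depended on time, against 51.3% of all probes. The course bent away from a straight line for 2 of the 12, both of TSC22D3, against 19.3% of all probes. Probes of the same gene are repeated readings of it, and the genes were chosen with earlier results of these data known. These counts are therefore no independent evidence. Values below are normalised log2 signals, and a difference of 1 log2 unit is a doubling of signal. Because there were no replicates, each SE comes from the scatter of the 16 arrays around the fitted course. Levels of different probes cannot be set against each other.

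**Figure D1:**
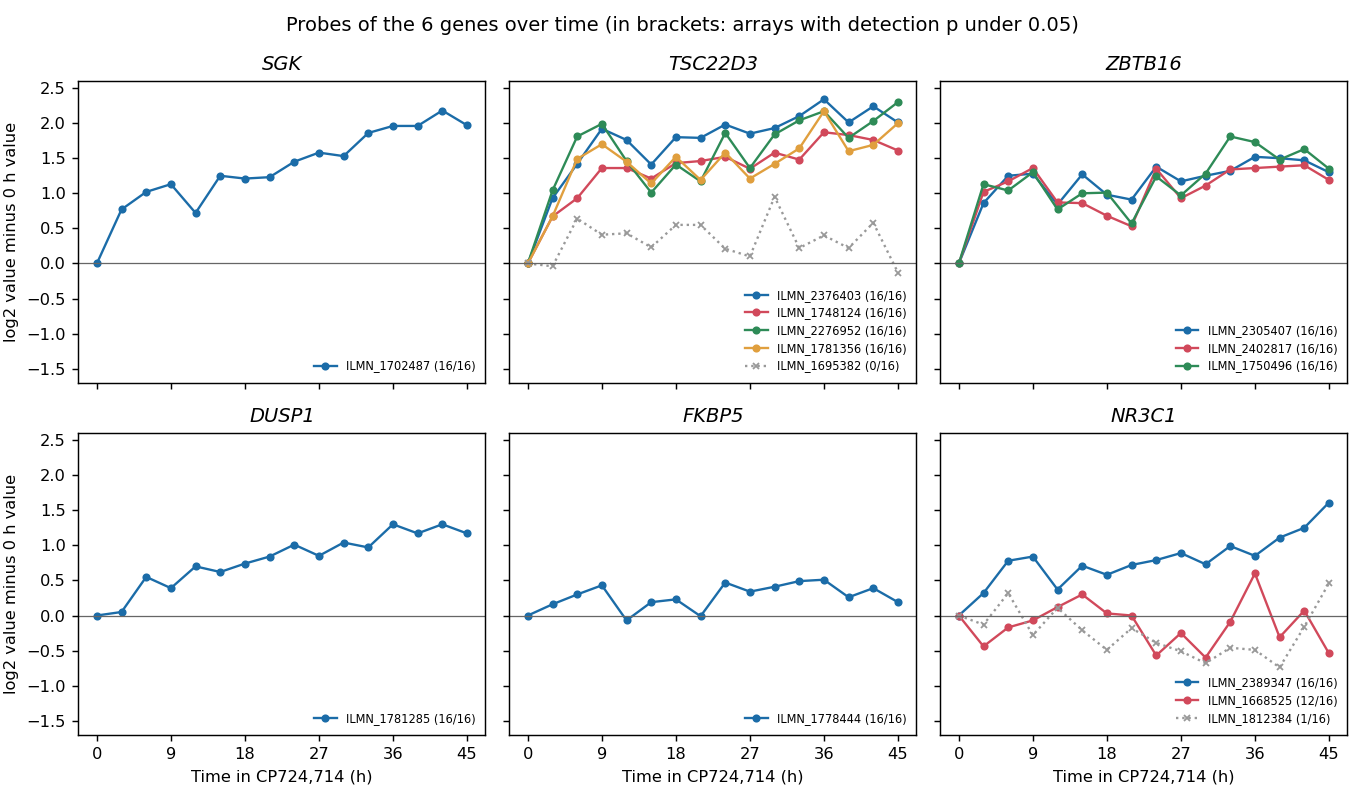
The normalised log2 value of each of the 14 probes minus its own 0 h value (y axis, log2 units) is plotted against hours in CP724,714 (x axis), 1 panel per gene and 1 point per array. Crosses on dotted grey lines are the 2 probes that were not tested. All probes tested of SGK, TSC22D3 and ZBTB16 lie above their 0 h value at every later time, FKBP5 stays within 0.51 log2 units of it, and the 2 dimmer NR3C1 probes move both ways.

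NR3C1, the receptor itself, was read by 3 probes of very different quality. Probe ILMN_2389347 was detected on all 16 arrays and measured 7.56 at the outset, 8.39 at 9 h, 7.93 at 12 h, then 8.34 at 24 h, and climbed from 8.41 at 36 h to 9.16 at the end. Its lowest array was 0 h and its highest 45 h, a 3.05-fold range. The linear change was 1.00 ± 0.14 log2 units (SE, adjusted p = 9.72e-06). The other tested probe, ILMN_1668525, was detected on 12 arrays, ranged from 5.83 at 30 h to 7.04 at 36 h without order and changed by -0.10 ± 0.28 (adjusted p = 0.801). The remaining probe, ILMN_1812384, was detected on 1 array. The rise of NR3C1 therefore rests on 1 probe, whose signal reached at most 1.03% of the top signal of an array.

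FKBP5, the co-chaperone of the feedback loop, had the smallest linear change of the probes detected on all arrays. Its probe measured 12.59 at the outset and climbed over 12.75 and 12.88 to 13.02 at 9 h. From 12 h to 21 h it read 12.51, 12.78, 12.82 and 12.58. From 24 h to 36 h it lay between 12.93 and 13.10, and it ended at 12.77. The lowest array was 12 h and the whole range was 1.5-fold. The linear change of 0.26 ± 0.12 log2 units missed the threshold (adjusted p = 0.0878, limma), although it passed without the 9 h array (0.32, adjusted p = 0.0262), without the 45 h array (0.36, adjusted p = 0.041) and with array weights (0.28, adjusted p = 0.0454). The mean of 24 to 33 h exceeded that of 12 to 21 h by 0.34 ± 0.09 (adjusted p = 0.0153). This difference was no longer called without the 12 h array (adjusted p = 0.0639) or the 33 h array (adjusted p = 0.0523).

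TSC22D3, a leucine zipper protein that restrains NF-κB and AP-1, gave the widest range of the 6 genes (5.06-fold), and its 4 tested probes rose together. The brightest, ILMN_2376403, measured 12.67 at the outset and 13.59, 14.09 and 14.59 on the next 3 arrays, a 3.79-fold increase over the first 9 h. It then stayed between 14.08 and 15.01 until 45 h, with its highest value at 36 h. ILMN_1748124 went from 12.82 at 0 h to 14.18 at 9 h and 14.69 at 36 h. ILMN_2276952 went from 10.08 to 12.07 at 9 h, returned to 11.09 on the 15 h array and ended at 12.39. ILMN_1781356 went from 8.57 to 10.27 at 9 h and 10.74 at 36 h. On all 4 probes the 0 h array was the lowest, and the range from lowest to highest was between 3.66-fold and 5.06-fold.

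The linear changes of these 4 TSC22D3 probes were 1.38 ± 0.18 (ILMN_2376403, adjusted p = 2.51e-06), 1.22 ± 0.12 (ILMN_1748124, adjusted p = 1.52e-07), 1.27 ± 0.28 (ILMN_2276952, adjusted p = 0.000921) and 1.13 ± 0.22 (ILMN_1781356, adjusted p = 0.000334). A straight line described them only in part. For the 2 brightest probes the departure from it was called (adjusted p = 0.00561 and 0.00321), with the steep part before 9 h and a slow part after it. The fifth probe, ILMN_1695382, was detected on none of the arrays and says nothing about the transcript it reads.

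ZBTB16, a zinc finger repressor of transcription, was read by 3 probes detected on all arrays. The brightest, ILMN_2305407, measured 10.30 at the outset and 11.16, 11.55 and 11.58 on the next 3 arrays. From 12 h to 21 h it read 11.14, 11.57, 11.28 and 11.21, and it lay between 11.47 and 11.82 from 24 h on. ILMN_2402817 went from 9.25 to 10.27 within 3 h, to 10.61 by 9 h, back to 9.78 at 21 h, and was at 10.60 on the next array. ILMN_1750496 went from 7.60 to 8.74 within 3 h, to 8.90 by 9 h, back to 8.17 at 21 h, and peaked with 9.41 on the 33 h array. All 3 probes thus rose within 3 h, were lower at 12 h and 21 h than at 9 h, and stood higher again at 24 h. Across the 16 arrays their pairwise Pearson correlations were 0.88 to 0.93, over points that share the same arrays.

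The linear changes of ZBTB16 were smaller than those of TSC22D3, at 0.81 ± 0.18 (ILMN_2305407, adjusted p = 0.00117), 0.69 ± 0.24 (ILMN_2402817, adjusted p = 0.0211) and 0.99 ± 0.25 (ILMN_1750496, adjusted p = 0.0032), and the difference between the genes was not tested. For ILMN_2402817 the F-test of the whole course was not passed (adjusted p = 0.0879), and without the 0 h array its linear change was 0.40 and no longer called (adjusted p = 0.0891).

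DUSP1, a phosphatase that inactivates MAP kinases, rose over the course. Its probe measured 11.91 at the outset and 11.96 on the next array, so the first 3 h changed it 1.04-fold. It reached 12.45 by 6 h, returned to 12.30 on the 9 h array, was at 12.61 by 12 h and 12.91 by 24 h, stood highest (13.20) on the 36 h and 42 h arrays and ended at 13.08. The linear change was 1.17 ± 0.10 log2 units (adjusted p = 7.78e-09), with a residual SD of 0.12 around the cubic course.

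SGK, a kinase related to AKT that is activated by PDK1 and mTORC2, had the largest linear change of the 12 probes. Its probe measured 11.14 at the outset, then 11.91, 12.16 and 12.27 on the next 3 arrays, and 11.86 on the 12 h array. From 15 h to 21 h it stayed between 12.35 and 12.39, then moved from 12.58 at 24 h to 12.99 on the 33 h array and 13.32 on the 42 h array. The 42 h array stood 4.55-fold above 0 h, the lowest array. The linear change was 1.69 ± 0.15 log2 units (adjusted p = 2.34e-08), which ranked 181 among the 16110 probes. The brightest signal of any probe of the 6 genes was 47.2% of the top of its array, on TSC22D3, and that of SGK was 14.4%, so neither was at the top of the scale.

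The timing was compared between 5 blocks of the course, which were the 0 h array, the arrays of 3 to 9 h, those of 12 to 21 h, those of 24 to 33 h and those of 36 to 45 h, each against the block before. In the first hours (3 to 9 h against 0 h) 8 of the 12 probes were higher and none was lower, while 1.14% of all probes were higher and 2.33% differed in either direction. The 8 were those of SGK, TSC22D3 and ZBTB16, and probes of the same gene are not independent. SGK was 1.96-fold higher (0.97 ± 0.19 log2 units, adjusted p = 0.00751). The TSC22D3 probes were 1.98-fold to 3.06-fold higher (adjusted p between 0.0018 and 0.0235), and the ZBTB16 probes 2.19-fold to 2.27-fold higher (adjusted p between 0.000795 and 0.0167). The differences of DUSP1 (0.33 ± 0.14, adjusted p = 0.255), FKBP5 (0.30 ± 0.14, adjusted p = 0.303) and NR3C1 probe ILMN_2389347 (0.64 ± 0.25, adjusted p = 0.195) did not pass.

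All of these first differences rest on the lone 0 h array, whose spread was assumed to be that of the other arrays. A fit with array weights gave it a weight of 0.3, against 0.27 for 45 h and up to 2.53 for 42 h. With these weights the 8 differences were 0.84 to 1.36 log2 units and none passed (adjusted p between 0.406 and 1), with 33 probes called in all in place of 376. The 0 h array was the lowest of 16 for 10 of the 12 probes tested (83.3%), for 38.7% of all probes that rose and for 15% of all probes tested. Without the 3 h array DUSP1 (0.47, adjusted p = 0.0136) and NR3C1 (0.81, adjusted p = 0.0359) passed as well, among 1796 probes called. TSC22D3 probe ILMN_1781356 no longer passed without the 6 h array (adjusted p = 0.0828) or the 9 h array (adjusted p = 0.0639).

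**Figure D2:**
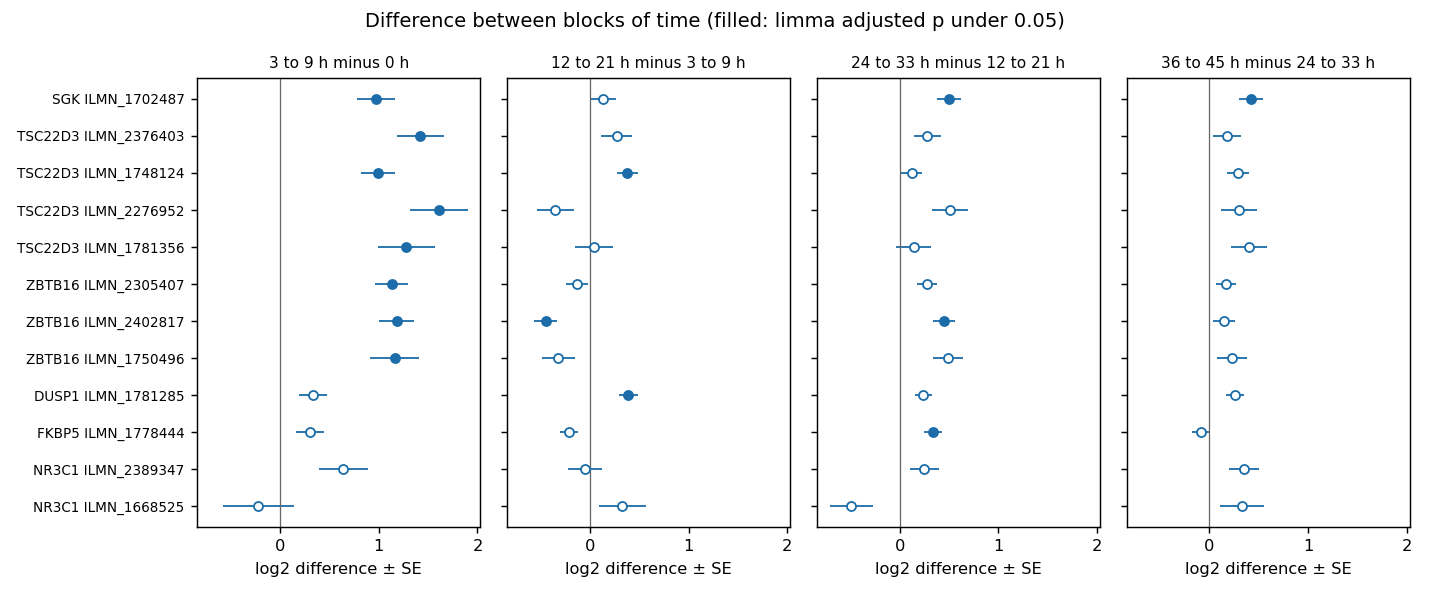
The difference of the mean log2 value of each block of time from the block before (x axis, log2 units, bars are the SE of the limma fit) is shown for the 12 tested probes in 4 panels. Filled points have an adjusted p under 0.05. The 8 filled points of the first panel belong to SGK, TSC22D3 and ZBTB16 and lie between 0.97 and 1.61, and the later panels hold 3, 3 and 1 filled points.

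Fewer of the 12 probes passed in the later steps. From 3 to 9 h to 12 to 21 h, a step at which 27.7% of all probes changed, DUSP1 rose by 0.39 ± 0.10 (adjusted p = 0.00449) and TSC22D3 probe ILMN_1748124 by 0.38 ± 0.11 (adjusted p = 0.0183), while ZBTB16 probe ILMN_2402817 fell by 0.45 (SE 0.12, adjusted p = 0.00964). The other ZBTB16 probes did not pass in this step (adjusted p = 0.435 and 0.165). The call of ILMN_1748124 was lost without the 3 h array (0.22, adjusted p = 0.146), the 6 h array (adjusted p = 0.0744) or the 21 h array (adjusted p = 0.0527), and with median scaling (adjusted p = 0.0515). From there to 24 to 33 h, where 9.3% of probes changed, SGK rose by 0.50 ± 0.12 (adjusted p = 0.0093), ZBTB16 probe ILMN_2402817 by 0.45 ± 0.11 (adjusted p = 0.0149) and FKBP5 as given above. The ZBTB16 call was lost without the 21 h, 24 h or 33 h array (adjusted p = 0.0552, 0.0537 and 0.0604). In the last step, to 36 to 45 h, where 4.01% changed, SGK alone of the 12 probes passed (0.42 ± 0.12, adjusted p = 0.0484). That last call was lost in 11 of the fits that left out an array, with differences of 0.36 to 0.50 over all of them. It was also lost with median scaling (adjusted p = 0.0819), cyclic loess (adjusted p = 0.0541), no filter (adjusted p = 0.0644) and detection on all 16 arrays (adjusted p = 0.0504).

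The course was also read within successive sets of 4 arrays, the first set being that of 0 to 9 h. The labels name no batch. With the set as a factor, so that time was read only within sets, 0 of the 12 probes passed limma's threshold, 4 had an unadjusted p under 0.05 and 11 had a positive estimate, while 0.9% of all probes passed. The estimates, scaled to 45 h, were 2.48 ± 0.64 for SGK (adjusted p = 0.0714), 2.53 ± 0.61 for NR3C1 probe ILMN_2389347 (adjusted p = 0.0555), 0.78 ± 0.44 for DUSP1 (adjusted p = 0.436) and 0.35 ± 0.45 for FKBP5 (adjusted p = 0.778). Between the earliest and the latest array of the successive sets SGK changed by 1.13, 0.52, 0.41 and 0.01 log2 units. TSC22D3 probe ILMN_2376403 changed by 1.92, 0.03, 0.11 and -0.33, and ZBTB16 probe ILMN_2305407 by 1.28, 0.07, -0.06 and -0.22. For these 2 probes the change within sets thus lay in the first one, and DUSP1 moved by 0.39, 0.14, -0.03 and -0.12.

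The genes whose course was most like each of the 6 were found by Pearson r over the 16 log2 values, among 13107 other genes. All points share the same arrays and the same order of time, and r is given as a description. SGK was most like GCHFR (0.97), which encodes the feedback regulator of GTP cyclohydrolase, RRAGD (0.97), a GTPase of mTORC1 signalling, and CXCR7 (0.96), a scavenging chemokine receptor. TSC22D3 was most like CDKN2C, PELI2 and GABARAPL1 (0.96 each), which encode a CDK inhibitor, a ubiquitin ligase and an autophagy protein. ZBTB16 was most like BMF (0.95), a BH3-only member of the BCL2 family, ERBB3 (0.93), a partner receptor of HER2, and FLJ20152 (0.93). DUSP1 was most like NET1, TMEM125 and LZTR1 (0.97 each) and NR3C1 most like LOC285193, ACVR2A and CCDC25 (0.93 each). For DUSP1, SGK and TSC22D3, 316, 201 and 112 genes had an r above 0.9, against 23 for NR3C1, 10 for ZBTB16 and none for FKBP5, whose nearest were CDK8 (0.88), PTPN13 and GMPR (0.87 each).

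The wider response was read from lists of other genes, each gene by its brightest probe. Of 26 further genes known to be induced by glucocorticoids, 24 were tested, 15 rose, 4 fell and 5 did neither, with a median linear change of 0.58 log2 units against 0.06 over all 13108 genes tested, of which 3545 rose and 2878 fell. The largest rises were those of GADD45B (1.54 ± 0.12, adjusted p = 5.16e-09), a stress sensor, RGS2 (1.38 ± 0.21, adjusted p = 2.23e-05), a brake on G protein signalling, NEDD9 (1.32 ± 0.22, adjusted p = 4.82e-05), an adhesion scaffold, and GLUL (1.27 ± 0.18, adjusted p = 1.09e-05), glutamine synthetase. A second probe of NEDD9 changed by 0.18. The list, like the others below, was put together with earlier results of these data known, so its counts and median are no independent evidence. The genes that fell were the metallothionein MT2A (-1.91 ± 0.19, adjusted p = 1.2e-07), the lipase inhibitor ANGPTL4 (-1.57 ± 0.39, adjusted p = 0.00241), CRISPLD2 (-1.01 ± 0.13) and annexin A1, ANXA1 (-0.68 ± 0.10). MT2A read 16.12 at 0 h, where KRT19 read 16.10 and ERBB2 16.10, so it started at the top of the scale and its change may be understated. MT2A was also the only gene of this list past the threshold within the 12 h sets, with a fall (-1.63, limma adjusted p = 0.0337). The fall of ANGPTL4 rests on 1 of 3 probes, since the others changed by -0.15 and 0.20. PER1, the clock gene often used as a marker of receptor activity, changed by 0.34 ± 0.22 and did not pass (adjusted p = 0.212). Its probe was detected on 13 arrays, not including 0 h, and read 5.69 to 6.66. That is close to background, so a change of PER1 could have been missed. NFKBIA was not analysed here.

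In the first hours 3 genes of the induced list were higher, namely KLF9 (0.81, adjusted p = 0.000261), a zinc finger factor, PDK4 (1.42, adjusted p = 0.000753), a kinase that shuts off pyruvate dehydrogenase, and CDKN1C (0.86, adjusted p = 0.0211), a CDK inhibitor. In the same hours 2 were lower, ANGPTL4 (-2.74, adjusted p = 1.19e-05) and ERRFI1 (-1.69, adjusted p = 0.000371), an inhibitor of ERBB receptors. Over all 13108 genes 153 were higher and 177 lower. The median of the list in these hours was 0.19, against 0.01 over all genes. These calls too rest on the lone 0 h array. The list therefore held genes that moved early in both directions, and its members are also targets of other pathways.

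Of 15 genes known to be repressed by glucocorticoids, many of them inflammatory, 11 were tested. Of these 7 fell and 2 rose, with a median change of -0.76 log2 units, while 2878 of all 13108 genes fell and 3545 rose. CCL2 changed by -4.04 ± 0.31 (adjusted p = 3.51e-09), IL8 by -3.03 ± 0.30 (adjusted p = 1.09e-07), TNF by -2.20 ± 0.23 (adjusted p = 2.35e-07) and CXCL1 by -1.41 ± 0.28 (adjusted p = 0.000334), where TNF is a cytokine and the others are chemokines. TNF was detected on 8 arrays and not on the 45 h array, and CCL2 was not detected on the 45 h array either, so background bounds how far their values could fall. CCL2, IL8, CXCL1 and CCL20 were already lower in the first hours, with differences of -3.51, -2.95, -1.93 and -1.2 log2 units. Over all 13108 genes 177 were lower and 153 higher in these hours. These calls too rest on the lone 0 h array. CCL5 (0.88 ± 0.12) and ICAM1 (0.65 ± 0.23) rose. ICAM1 was detected on 12 arrays and lay close to background, between 5.53 and 7.01, with 6.41 at 0 h and 6.44 at 45 h.

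**Figure D3:**
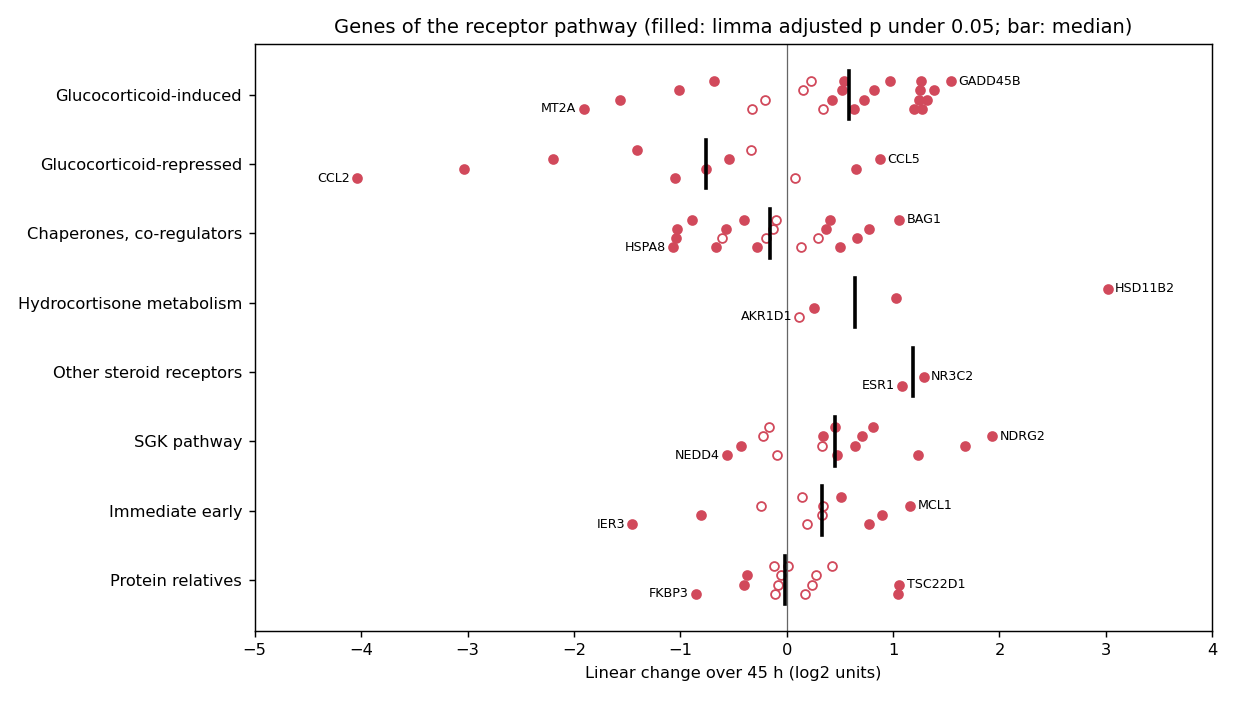
Each point is the linear change over 45 h (x axis, log2 units) of 1 tested gene by its brightest probe, in rows for 8 lists. Filled points have a limma adjusted p under 0.05, black bars are medians, and the lowest and highest gene of each list is named. The median is 0.58 for the induced and -0.76 for the repressed genes, and HSD11B2 stands at 3.02.

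Of 20 chaperones and co-regulators around the receptor, all tested, 6 rose and 8 fell, with a median of -0.16. Over all 13108 genes 3545 rose and 2878 fell, so the count of rises in particular was near that background. The falls were largest for HSPA8 (-1.07 ± 0.16, adjusted p = 1.98e-05), STIP1 (-1.04 ± 0.17, adjusted p = 4.26e-05), HSP90AB1 (-1.03 ± 0.13, adjusted p = 2.74e-06) and PTGES3 (-0.89 ± 0.13, adjusted p = 1.88e-05), which encode HSC70, HOP, HSP90β and p23, all of them part of the assembly line that readies the receptor for hormone. Within the 12 h sets none of these passed (limma adjusted p between 0.0981 and 0.328). Between 21 h and 24 h, where 2 sets meet, HSPA8 went from 15.51 to 14.90 and HSP90AB1 from 14.77 to 14.20. STIP1 went from 13.69 at 0 h to 12.48 by 9 h. FKBP4, the co-chaperone that competes with FKBP5, fell by 0.40 (SE 0.15, adjusted p = 0.0353). The rises were those of BAG1 (1.06 ± 0.13), NCOA1 (0.77 ± 0.11), DNAJB1 (0.66 ± 0.21) and CREBBP (0.50 ± 0.10) among others, where NCOA1 and CREBBP are coactivators. The other probes of NCOA1 changed by -0.08 and 0.75. DNAJB1 was lower in the first hours (-0.87 against the lone 0 h array), with 12.40 at the outset and 11.15 on the next array. It had returned to 12.28 by 12 h and ended on 12.26, or 0.908-fold of its starting signal. Its linear term was thus called as a rise without a net gain from the first array to the last. The F-test of its whole course was not passed (adjusted p = 0.0696).

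Of 8 genes that make, inactivate or export hydrocortisone, 4 were tested, 3 rose and none fell, while 3545 of all 13108 genes rose and 2878 fell. Of the 4, HSD11B2 had the largest change. Its product converts hydrocortisone to inactive cortisone and is known for shielding the mineralocorticoid receptor. HSD11B2 measured 12.63 at the outset, 14.46 by 9 h, 14.12 on the 12 h array and 15.76 in the end, and its linear change was 3.02 ± 0.15 log2 units (adjusted p = 2.49e-11). From 36 h on it read 15.76 to 15.90, near KRT19 (16.11) and ERBB2 (16.12) at 45 h, so its change may be understated. Within the 12 h sets the estimate was 3.63 and did not pass (adjusted p = 0.0828). HSD11B1, the enzyme of the reverse reaction, H6PD, which supplies its cofactor, CYP3A4 and the exporter ABCB1 were detected on none of the arrays. CYP3A5 (1.03 ± 0.27, adjusted p = 0.00391) and SRD5A1 (0.26 ± 0.10, adjusted p = 0.0384) rose, and AKR1D1 changed by 0.12 ± 0.12 (adjusted p = 0.445). CYP3A5 was detected on 12 arrays and read 5.2 to 7.15, close to background. Hydrocortisone itself and enzyme activity were not measured.

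Among 4 other steroid receptors, NR3C2, the mineralocorticoid receptor, which also binds hydrocortisone, rose by 1.29 ± 0.12 (adjusted p = 4.03e-08) and ESR1, the oestrogen receptor, by 1.08 ± 0.23 (adjusted p = 0.000605). Over all 13108 genes 3545 rose and 2878 fell. ESR1 was detected on all 16 arrays but read only 6.21 to 7.46, close to background at the start. PGR and ESR2 were detected on none.

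Of 16 genes of the SGK pathway 15 were tested, with a median of 0.45. Of these 9 rose, 2 fell and 4 did neither, against 3545 rises and 2878 falls among all 13108 genes. The largest rises were those of NDRG2 (1.93 ± 0.14, adjusted p = 1.16e-09) and NDRG1 (1.23 ± 0.15, adjusted p = 1.35e-06), whose products are phosphorylated by SGK, and of the epithelial sodium channel subunits SCNN1B (1.68 ± 0.13, adjusted p = 5.05e-09) and SCNN1G (0.81 ± 0.24, adjusted p = 0.0101). NDRG2 was the only gene of the list past the threshold within the 12 h sets (adjusted p = 0.0337). SCNN1A, the remaining channel subunit, stood in the induced list and rose by 1.24 ± 0.06 (adjusted p = 4.38e-12). It read 15.92 at 45 h, near the top of the scale, so this change may be understated. In the first hours SCNN1G (1.14, adjusted p = 0.00204) and FOXO3 (0.65, adjusted p = 0.0272), a transcription factor that SGK phosphorylates, were higher. Over all 13108 genes 153 were higher and 177 lower in these hours, and the calls rest on the lone 0 h array. NEDD4 (-0.56 ± 0.14, adjusted p = 0.0028) and GSK3B (-0.43 ± 0.08, adjusted p = 0.000149) fell. WNK4 was detected on no array, and phosphorylation was not measured.

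**Figure D4:**
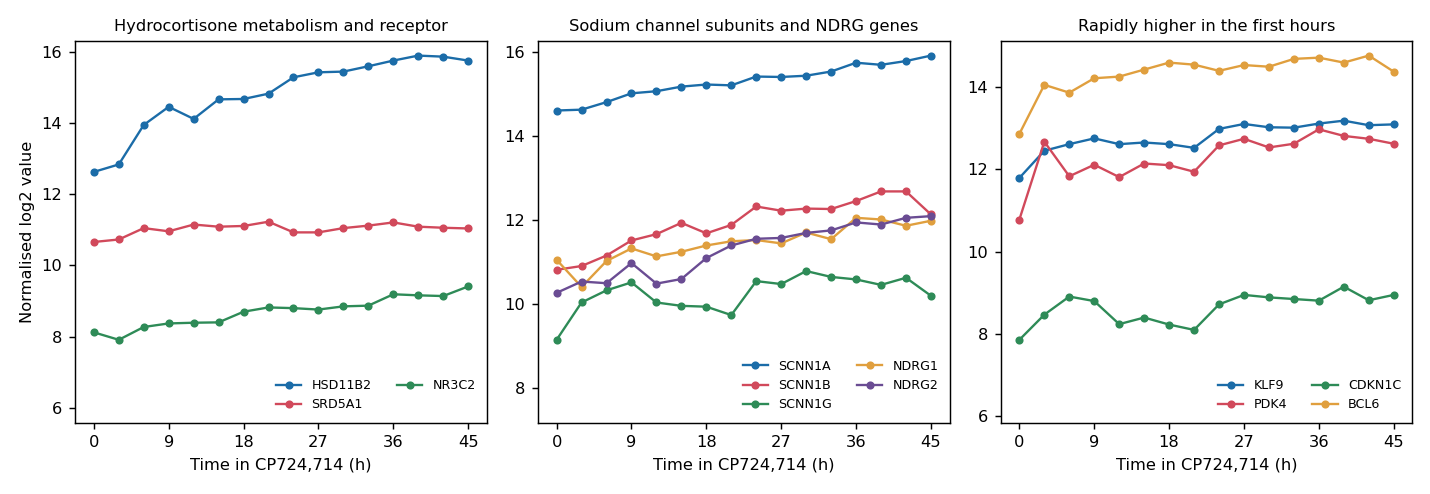
Normalised log2 values (y axis) against hours in CP724,714 (x axis), 1 point per array, for genes of hydrocortisone metabolism and the mineralocorticoid receptor, for sodium channel subunits and NDRG genes, and for genes of the lists that were higher in the first hours. HSD11B2 climbs from 12.63 to 15.76, SCNN1A climbs from 14.61 to 15.92 and NDRG2 from 10.26 to 12.09, SCNN1B reaches 12.68 and drops to 12.13 on the last array, and KLF9, PDK4, CDKN1C and BCL6 lie above their 0 h value at every later time. Levels of different genes cannot be compared.

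DUSP1 is also an immediate early gene of growth factor signalling, and 11 others of that kind were set beside it. Of these 4 rose, 2 fell and 5 did neither, with a median of 0.33, and in the first hours their median was -0.45. Among all 13108 genes tested 3545 rose and 2878 fell, with a median of 0.06, and 0.01 in the first hours. IER3 was lower in those hours (-2.77, adjusted p = 3.68e-08) and over the course (-1.45 ± 0.48, adjusted p = 0.017), as EGR1 was over the course (-0.81 ± 0.25, adjusted p = 0.0123). MCL1 (1.16 ± 0.16), ATF3 (0.90 ± 0.14), ZFP36 (0.77 ± 0.12) and KLF6 (0.51 ± 0.13) rose, with 0.27 for another probe of MCL1. The linear change of DUSP1 (1.17) was close to that of MCL1.

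Close relatives of the encoded proteins were read as well. Of 15 relatives in the TSC22, FKBP and BTB zinc finger families, 14 were tested, with a median of -0.02. Of these 2 rose, 3 fell and 9 did neither, against 3545 rises and 2878 falls among all 13108 genes. TSC22D1 rose by 1.06 ± 0.10 (adjusted p = 3.34e-08) and BCL6, a BTB zinc finger repressor like ZBTB16, by 1.05 ± 0.14 (adjusted p = 6.48e-06), with 1.18 already in the first hours (adjusted p = 0.000169). FKBP3 (-0.85 ± 0.07), FKBP4 (given above, with its return at 45 h) and FKBP1A (-0.37 ± 0.10) fell.

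The cells were checked against markers. All 7 epithelial and HER2 amplicon genes (KRT8, KRT18, KRT19, EPCAM, CDH1, ERBB2 and GRB7) were detected on all 16 arrays, and KRT8 (-0.68 ± 0.10) and KRT18 (-0.74 ± 0.10) fell, with -0.07 for the other probe of KRT18. GRB7 was higher in the first hours (0.58, adjusted p = 0.00253). Of 10 markers of stromal, endothelial and blood cells, VIM, COL3A1, PDGFRB and PTPRC were detected on none, and PECAM1 and CD14 on all. VWF rose by 2.51 ± 0.28 (adjusted p = 4.03e-07) and CD14 by 0.34 ± 0.14 (adjusted p = 0.0499). VWF was detected on 13 arrays and read 5.13 at 0 h and 5.24 at 3 h, close to background, which bounds the size of its rise. The summed linear level of these 10 genes was 3810 at 0 h, 2790 to 5110 later and 5110 at 45 h, and that of the epithelial genes 232000 to 261000. Levels of different probes cannot be compared, KRT19 and ERBB2 stood at the top of the scale, and CD14 was the brightest of the 10. The sums therefore do not give the share of other cells. The part of such cells in the results was not tested. In RNA of a whole culture a change per cell and a change in the share of cells cannot be told apart. Over the arrays the median signal was 242.2 to 383.8, and 14110 to 15073 probes were detected.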

How the data were processed

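RNA of 16 parallel SUM225 cultures, 1 per time point, was measured on 16 Illumina bead arrays, which were grouped by the time in their labels. The deposited table gives a linear signal intensity per probe and array, without background subtraction or normalization, and a detection p-value of each signal was deposited with it. No intensity was below 110.7. The scanning software was not given in the sources used here. The study's methods describe quantile normalization, a step after this table. No columns were left out.

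Signals were corrected by normexp with the controls inferred from the detection p-values (offset 16), quantile normalized and log2 transformed with limma 3.58.1 in R 4.3.3 (neqc). The offset lowers the fold changes of dim probes. Testing was restricted to the 16110 probes whose detection p was under 0.05 on 3 or more arrays. A cubic polynomial in hours was fitted with lmFit and eBayes with an intensity trend. A separate fit took 5 blocks of time, and another took the 12 h set as a factor. Tests were two-sided, adjusted by Benjamini-Hochberg over all probes tested, at a threshold of 0.05. The fit was tested on simulated data. The number of arrays limits the precision.

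The 6 genes and all lists were chosen with earlier results of these data known. All their probes are reported. In each list the brightest probe stood for a gene, and up to 4 called genes per direction with the largest change were named, with those called in the first hours. For each of the 6 genes the 3 genes with the highest r were named. Genes further discussed for their role (PER1, SCNN1A, NFKBIA, AKR1D1, FKBP4) were chosen after their values were seen. Counts of 1 list omit a gene that is not reported here. Symbols were matched to RefSeq, GRCh38.p14 (91.0% of 18631), which also gave the promoters. Python 3.11.15 with matplotlib 3.10.9 drew the figures. The alternatives were uncorrected signals, cyclic loess or median scaling in place of quantile, a larger offset (50), all probes, probes detected on all 16 arrays, a quadratic course, a step between 21 and 24 h, the 12 h set as a factor, array weights, and each array left out in turn.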

Additional observations from a re-analysis of the deposited data

How the results depend on the processing

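Of 311 recomputed linear changes of the 12 probes, under 26 settings, 290 kept their direction and side of the threshold and 21 did not. Under no background correction, an offset of 50, median scaling and cyclic loess, 10 probes rose as in the report. When a step after 21 h entered the model, 3092 probes and 3 of the 12 changed. The estimate was then 0.60 for NR3C1 probe ILMN_2389347 (adjusted p = 0.269, limma), 0.00 for TSC22D3 probe ILMN_2276952 (adjusted p = 0.998), 0.99 for ILMN_2376403, 0.64 for ILMN_1781356, 0.12 for ZBTB16 probe ILMN_2305407, 0.28 for ILMN_1750496 and -0.55 for ILMN_2402817, a reversed sign (adjusted p = 0.513). When the 12 h set entered as a factor, 145 probes and 0 of the 12 changed (4 had an unadjusted p under 0.05). The estimates were 0.78 for DUSP1, 2.53 for NR3C1 probe ILMN_2389347, 2.48 for SGK, 2.97, 2.40, 1.53 and 2.06 for TSC22D3 probes ILMN_2276952, ILMN_2376403, ILMN_1748124 and ILMN_1781356, and 1.02, 1.27 and 1.59 for ZBTB16 probes ILMN_2402817, ILMN_2305407 and ILMN_1750496. The cause was not tested. With array weights FKBP5 passed (0.28), and 33, 2280 and 1021 probes were called in the steps to 3 to 9 h, 24 to 33 h and 36 to 45 h, against 376, 1499 and 646.

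When each array was left out in turn, the linear change ranged from 1.46 to 1.79 for SGK, 1.08 to 1.26 for DUSP1, 0.20 to 0.36 for FKBP5, 0.86 to 1.11 for NR3C1 probe ILMN_2389347, 0.40 to 0.81 for ZBTB16 probe ILMN_2402817, 0.49 to 0.92 for ILMN_2305407 and 0.71 to 1.13 for ILMN_1750496. For TSC22D3 it ranged from 0.91 to 1.36 (ILMN_1748124), 0.76 to 1.27 (ILMN_1781356), 0.86 to 1.47 (ILMN_2276952) and 0.94 to 1.56 (ILMN_2376403). The number of probes called ranged from 182 without the 6 h array (244 without 9 h) to 1796 without the 3 h array in the first hours, from 943 without the 30 h array to 1964 in the step to 24 to 33 h, and from 397 without the 24 h array to 808 in the last step. No paired analysis was possible because no time point had a second array. Dim probes, such as those of NR3C1, were limited by their signal over background.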
